A study of Mus musculus with 9 samples.

Results

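Leukaemia cells without surface c-Kit were compared by whether they carried CD43. The cells came from bone marrow of C57BL/6 mice aged 6 to 8 weeks in an AML1-ETO9a leukaemia model. AML1-ETO9a is a truncated splice variant of the protein made when RUNX1 is fused to RUNX1T1. Of the 9 RNA-seq libraries in the study, 3 were made from CD43+ckit- cells and 3 from CD43-ckit- cells, and these 6 make up the comparison. The other 3, from CD43++ckit+ cells, entered the fit to share its estimate of spread. All groups shared the strain, the age range, the tissue and the leukaemia model, and differed in the 2 surface antigens used for sorting. How AML1-ETO9a had been introduced, and which cells expressed it, is not given in the sources used here, and a gate on these antigens can also hold non-leukaemic marrow cells. Nothing in the labels ties the libraries of a group to separate animals, so the spread behind each p-value may be technical rather than biological. All genes were taken: the deposited count table had 24391 gene rows, and 12573 genes passed the filter on low counts and were tested.

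CD43, encoded by Spn, is a heavily sialylated mucin of leukocyte membranes. It is linked to the cortical actin skeleton and is found on early haematopoietic cells, on most leukocytes and not on mature red cells. c-Kit is the receptor for stem cell factor and is lost as progenitors mature. When erythroid cells mature, they divide a limited number of times, build haem and the spectrin-based membrane skeleton, and then leave the cell cycle, condense and expel the nucleus, and clear mitochondria and ribosomes through autophagy and ubiquitin-dependent degradation.

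Library totals were 27378734 to 28214639 counts in CD43+ckit- and 17966197 to 21609537 counts in CD43-ckit-. The 10 genes with the most counts took 5.43% to 5.65% of a CD43+ckit- library and 12.2% to 14.1% of a CD43-ckit- library. TMM scaling factors, which correct a total for such dominant genes, were 1.05 to 1.14 and 0.589 to 0.776. Levels are TMM-scaled CPM, counts brought to a common library size, given for replicates 1, 2 and 3 in that order. They are not corrected for transcript length, so they compare libraries and not genes. Log2 fold changes are CD43+ckit- minus CD43-ckit-, with the standard error after ±, so a negative value is a higher level in CD43-ckit-. Tests are edgeR's quasi-likelihood tests, with p-values adjusted by Benjamini and Hochberg's method over all tested genes. A gene was called at an adjusted p below 0.05. Within CD43-ckit-, replicate 1 stood apart from replicates 2 and 3: it was the lowest of the 3 for 32 of 33 neutrophil genes and 34 of 36 DNA replication genes and the highest for 15 of 17 genes of late red cell remodelling. Where a count below moved by over 1.5 times without replicate 1 of both groups, or with same-numbered libraries as blocks, that value is given too. The block fit of 6 libraries leaves few degrees of freedom for each gene. Its very small adjusted p-values therefore rest on the spread shared among genes, and their size is not to be read as strength of evidence. The pairing it assumes was taken from these data alone and was clear only for replicate 1.

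RNA of the sort marker itself overlapped between the groups. Spn stood at 137, 232 and 213 CPM in CD43+ckit- against 71.7, 175 and 180.1 CPM in CD43-ckit-. Replicates 2 and 3 of CD43-ckit- lay above replicate 1 of CD43+ckit-, and the difference did not pass the test (0.45 ± 0.33, adjusted p = 0.269). It did pass with library totals as scaling (1.04, adjusted p = 0.0443) and when the 6 libraries were fitted alone with the replicate number as a block (adjusted p = 0.0168). Replicate 1 was the lowest of its group on both sides. Kit, the other sort marker, stood at 7.80, 18.4 and 21.0 CPM in CD43+ckit- against 18.9, 41.3 and 42.1 CPM in CD43-ckit-. The groups overlapped, since replicate 1 of CD43-ckit- lay below replicate 3 of CD43+ckit-. Kit was called higher in CD43-ckit- (-1.11 ± 0.39, adjusted p = 0.0379), a call that did not survive library totals (adjusted p = 0.33) or fitting without the filter on low counts (0.0792). It was lost as well without replicate 1 of CD43++ckit+, replicate 1 or 2 of CD43+ckit- or replicate 2 or 3 of CD43-ckit- (adjusted p = 0.0542, 0.0748, 0.0623, 0.113 and 0.114). Of the mouse genes of the fusion partners, Runx1 stood at 171, 158 and 164 CPM in CD43+ckit- against 245, 183 and 163 CPM in CD43-ckit- (-0.26 ± 0.29, adjusted p = 0.454). Runx1t1 stood at 84.2, 93.6 and 92.1 CPM in CD43+ckit- against 76.2, 48.6 and 51.1 CPM in CD43-ckit- (0.62 ± 0.20, adjusted p = 0.0266). Runx1 overlapped between the groups and Runx1t1 did not. The Runx1t1 call was lost with DESeq2 (adjusted p = 0.0631) and without replicate 2 or 3 of CD43+ckit- or replicate 2 or 3 of CD43-ckit- (adjusted p = 0.0669, 0.0685, 0.0917 and 0.0823). Gene counts do not separate fusion transcripts from those of the normal genes.

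Although the labels name leukaemic bone marrow cells, the genes that took the most counts in CD43-ckit- included many red cell genes. In bulk RNA, more cells of a type and more RNA per cell cannot be told apart. Ranked by mean CPM in CD43-ckit-, the first 10 were Tmcc2, Chga, Slc4a1, Ftl1, Slc2a1, Ube2o, Pabpc1, Gpx1, Epb4.1 and Alas2. Slc4a1, which encodes the anion exchanger band 3 of the red cell membrane, stood at 9199, 10199.9 and 8425 CPM in CD43+ckit- against 27753, 19073 and 17560.4 CPM in CD43-ckit-. Its groups did not overlap, but the difference did not pass (-1.21 ± 0.51, adjusted p = 0.0716), and it did with the replicate block (adjusted p = 4.9e-05), with the 6 libraries alone (0.00452) and with DESeq2 (0.00927). Without replicate 2 or replicate 3 of CD43++ckit+, which enter the shared spread and the scaling, it passed as well (adjusted p = 0.0373 and 0.00215). Of the primary granule genes that mark myeloid blasts, Mpo, which encodes myeloperoxidase, stood at 60.3, 114 and 73.4 CPM in CD43+ckit- against 543, 846 and 859.7 CPM in CD43-ckit-. Elane, which encodes neutrophil elastase, stood at 18.9, 38.8 and 26.7 CPM in CD43+ckit- against 185, 301 and 317 CPM in CD43-ckit-. Neither passed in the fit of 9 libraries (Mpo -3.18 ± 1.25, adjusted p = 0.0617; Elane -3.25 ± 1.28, adjusted p = 0.0621), and both did with the replicate block (adjusted p = 2.94e-48 and 5.17e-62) and without replicate 2 (adjusted p = 0.0186 and 0.0181) or replicate 3 (0.00067 and 0.000864) of CD43++ckit+.

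Of the 12573 tested genes, 6523 (51.9%) were called: 3893 (31.0%) higher in CD43+ckit- and 2630 (20.9%) higher in CD43-ckit- (3949 with the replicate block). The side with fewer calls held the larger changes. Among calls higher in CD43-ckit-, the median size was 1.53 on the log2 scale, 1884 were at least 2-fold and 906 at least 4-fold. Among calls higher in CD43+ckit-, the median size was 0.886, 1482 were at least 2-fold and 71 at least 4-fold. Calls of at least 2-fold in either direction numbered 3366 (26.8% of tested genes). Libraries of the 2 groups did not overlap for 8085 tested genes (64.3%). The balance of directions depended on scaling: 59.7% of calls were higher in CD43+ckit- with TMM, 85.2% with library totals, 44.8% with DESeq2 size factors and 50.3% when only the 6 libraries were fitted. Library totals moved the median log2 fold change of all tested genes by 0.648 and DESeq2 by -0.198, from 0.13 with TMM, so each list median below is to be read against 0.13. Likewise, the counts called in a list are to be read against 31.0% higher in CD43+ckit- and 20.9% higher in CD43-ckit-. Calls in the same direction under all 17 alternatives numbered 3439 (27.4% of tested genes), of which 2551 (20.3%) were higher in CD43+ckit- and 888 (7.06%) higher in CD43-ckit-.

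**Figure D1:**
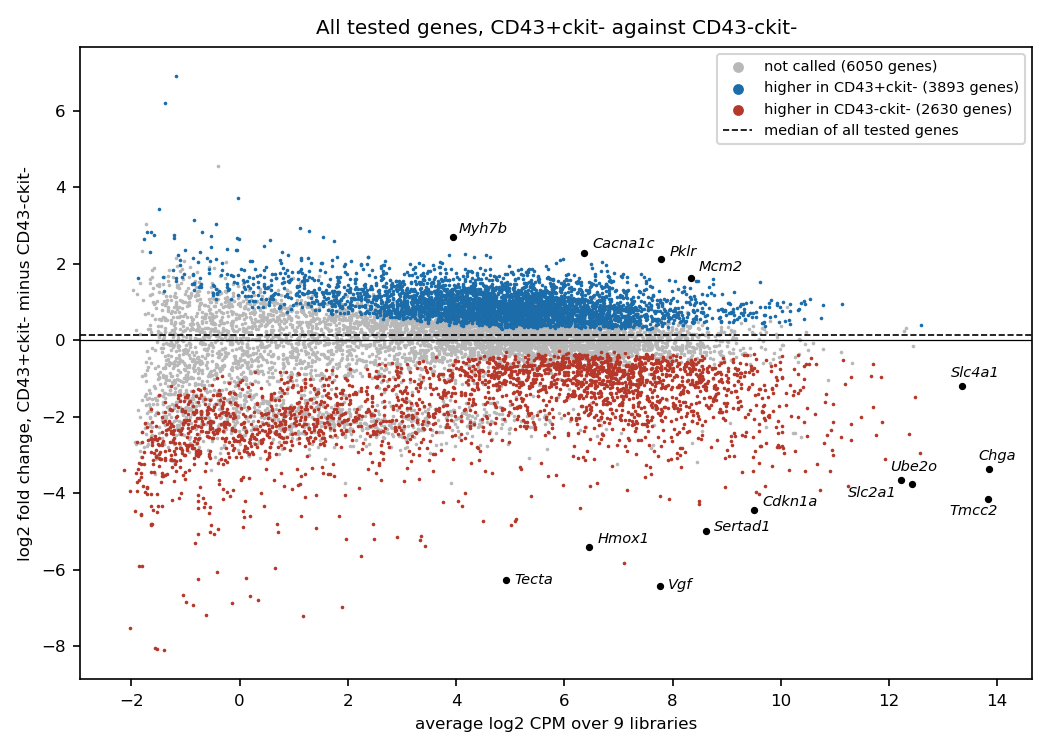
Each point is 1 tested gene, with its average log2 CPM over 9 libraries on the horizontal axis and its log2 fold change, CD43+ckit- minus CD43-ckit-, on the vertical axis. The 3893 genes called higher in CD43+ckit- (blue) lie mostly within 2 log2 units of 0, while the 2630 called higher in CD43-ckit- (red) reach below -6, and the labelled genes in black include Slc4a1, which was not called.

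Above an average log2 CPM of 3, the 12 largest changes on the CD43-ckit- side were in genes at low CPM in CD43+ckit-. Vgf, which encodes a secretory granule protein of neuroendocrine cells, stood at 773, 629 and 536 CPM in CD43-ckit- against 2.39, 12.98 and 7.28 CPM in CD43+ckit- (-6.42 ± 0.60, adjusted p = 0.000103). Hmox1, which encodes the haem-degrading enzyme haem oxygenase 1, stood at 309.8, 243 and 206 CPM in CD43-ckit- against 2.69, 9.29 and 6.03 CPM in CD43+ckit- (-5.40 ± 0.90, adjusted p = 0.00184). In both, every CD43-ckit- library was far above every CD43+ckit- library, and replicate 1 was the highest of CD43-ckit- and the lowest of CD43+ckit-. Sertad1, which encodes a cofactor of E2F-dependent transcription, stood at 1131, 1246 and 1032 CPM in CD43-ckit- against 15.5, 56.8 and 35.3 CPM in CD43+ckit- (-4.99 ± 0.49, adjusted p = 0.000114). Tecta, Acta1, Tssk3, Zc3hav1l and Fbxl22 were called the same way with fold changes of -6.28, -5.39, -5.22, -4.74 and -4.67 (largest adjusted p = 0.000324). Their highest CD43+ckit- library stood at 5.43 CPM (Fbxl22) and their lowest CD43-ckit- library at 25.2 CPM (Tssk3). Eda2r, a TNF-family receptor gene that p53 activates, stood at 143, 79.7 and 63.9 CPM in CD43-ckit- against 3.36, 3.15 and 4.33 CPM in CD43+ckit- (-4.72 ± 0.45, adjusted p = 0.000106). Hspa1b, which encodes an inducible HSP70, was also among these 12 genes, as was Hbq1a, a globin described below (-4.84 ± 1.64, adjusted p = 0.038 for Hspa1b), but the Hspa1b call was lost when any 1 of the CD43+ckit- or CD43-ckit- libraries was left out (adjusted p = 0.123, 0.0901 and 0.104 for CD43+ckit- and 0.0852, 0.0564 and 0.0512 for CD43-ckit-). It was also lost with replicate blocks over 9 libraries (adjusted p = 0.0513), without the filter on low counts (adjusted p = 0.0896) and without replicate 1 of both groups (adjusted p = 0.212). DESeq2 gave no adjusted p for it, and 62.3% of its 50-base transcript words occur in other genes, above all Hspa1a, so its counts are uncertain.

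The 12 largest changes on the CD43+ckit- side, chosen the same way, were smaller. Myh7b, which encodes a myosin heavy chain, had the largest, at 33.4, 28.9 and 29.1 CPM in CD43+ckit- against 3.61, 5.04 and 5.38 CPM in CD43-ckit- (2.70 ± 0.19, adjusted p = 3.12e-05). Cacna1c, which encodes the pore subunit of an L-type calcium channel, stood at 85.4, 81.3 and 103 CPM in CD43+ckit- against 14.1, 19.3 and 22.6 CPM in CD43-ckit- (2.27 ± 0.36, adjusted p = 0.00106). Pklr, which encodes the pyruvate kinase of red cells and liver, stood at 322, 368 and 350.1 CPM in CD43+ckit- against 48.5, 83.6 and 109 CPM in CD43-ckit- (2.11 ± 0.26, adjusted p = 0.000349). The groups did not overlap for these 3, as the choice of genes required, and replicate 1 of CD43-ckit- was the lowest library in each. Mapt (tau), Abcg4 (a sterol transporter) and Atp7b (a copper transporter) had fold changes of 2.16, 2.05 and 2.23. Also among the 12 were Ehf, Pdia2, Lrrc4b, Tspan15 and Arhgef40, at 2.04 to 2.25 (largest adjusted p over the 12 = 0.00316). All 12 were called under each of the 17 alternatives.

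**Figure D2:**
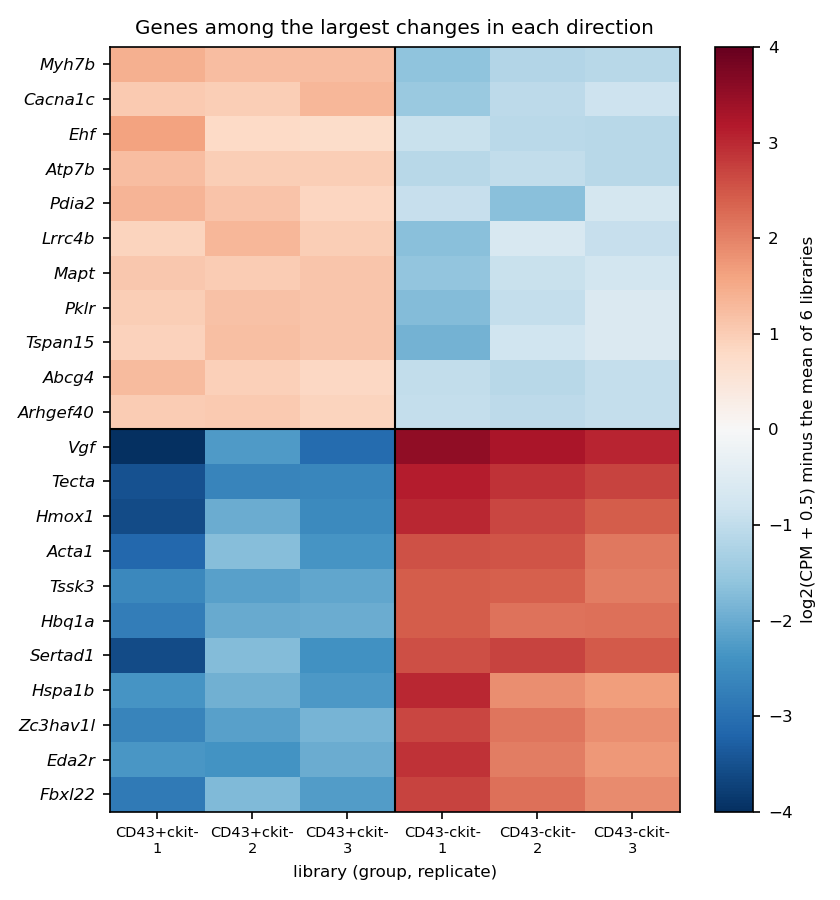
Rows are genes among those with the largest changes in each direction and columns are the 6 libraries; colour is log2(CPM + 0.5) minus the mean of the row. The upper rows, from Myh7b to Arhgef40, are higher in every CD43+ckit- library, and the lower rows, from Vgf to Fbxl22, are higher in every CD43-ckit- library, with the contrast widest in Vgf. Only genes whose groups did not overlap were eligible, so this separation was fixed by the choice.

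Genes of haem synthesis were called in both directions. Of 13 tested, 3 were higher in CD43+ckit- and 5 higher in CD43-ckit-, and the median was -0.08 (0.59 with library totals). Without replicate 1 of both groups the counts were 5 and 3, so the balance turned. Alas2, the rate-limiting erythroid enzyme, stood at 11445, 8033 and 7886 CPM in CD43-ckit- against 2151, 2290.2 and 1804 CPM in CD43+ckit-, which was 4.38-fold higher in CD43-ckit- (-2.13 ± 0.45, adjusted p = 0.00427). Alas2 was no longer called without replicate 1 of both groups (adjusted p = 0.0558). Fech, which encodes the enzyme that inserts iron, was 2.02-fold higher in CD43-ckit- (-1.02 ± 0.20, adjusted p = 0.00299), a call not kept with library totals (adjusted p = 0.0646). Alad, which encodes the second enzyme, went the other way at 828, 738 and 601 CPM in CD43+ckit- against 395, 254 and 303 CPM in CD43-ckit- (1.19 ± 0.22, adjusted p = 0.00222). Tmem14c, which encodes a mitochondrial porphyrinogen transporter, did the same at 799, 799 and 753 CPM in CD43+ckit- against 368, 277 and 378 CPM in CD43-ckit- (1.20 ± 0.14, adjusted p = 0.000269). In each of these 4 genes the groups did not overlap.

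Adult globins could not be compared. Rows for Hbb-b1, Hbb-b2, Hbb-bs and Hbb-bt held 0 counts in all 6 libraries, and Hba-a1 and Hba-a2 held at most 4 and 1 counts in any library, while Alas2 stood at 1804 CPM or more in each of them. Of 12 globin rows, 4 were tested, and all 4 were higher in CD43-ckit-. The embryonic beta-like Hbb-bh1 stood at 19.9, 12.9 and 16.1 CPM in CD43-ckit- against 0.572, 2.25 and 1.603 CPM in CD43+ckit- (-3.46 ± 0.53, adjusted p = 0.000887). Hbb-bh2, a beta-like gene outside the list and named after its values were seen, stood at 14.8 to 35.9 CPM in CD43-ckit- against 4.81 to 6.15 CPM in CD43+ckit- (-2.01 ± 0.43, adjusted p = 0.00482). The theta globins Hbq1a (-5.11 ± 0.35, adjusted p = 3.12e-05) and Hbq1b (-2.43 ± 0.40, adjusted p = 0.00131) share 36.8% and 28.3% of their 50-base words, so reads between them are uncertain. Other genes named here with more than 10% of such words in another gene, often a pseudogene, are Pcna, Ccnb1, Bnip3l, Ncoa4, Stat5b, Gabarapl2, Ndufs3, Lyz2, Csf2rb, Csf2rb2, H2-D1, H2-T23 and H2-DMb1, and their counts are uncertain to that extent.

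The iron list held genes of both directions: 5 of 15 were higher in CD43+ckit- and 6 higher in CD43-ckit-, with a median of -0.44 (0.25 with library totals). Among those higher in CD43+ckit-, Tfr2, the transferrin receptor paired with the erythropoietin receptor, stood at 247, 225 and 210.4 CPM in CD43+ckit- against 96.6, 89.4 and 101 CPM in CD43-ckit- (1.25 ± 0.11, adjusted p = 7.58e-05). Steap3, which encodes the endosomal ferrireductase, stood at 125, 145 and 129 CPM in CD43+ckit- against 21.1, 44.1 and 49.3 CPM in CD43-ckit- (1.799 ± 0.27, adjusted p = 0.000862). Slc11a2, which encodes the divalent metal transporter DMT1, stood at 196, 216 and 201 CPM in CD43+ckit- against 109.6, 112 and 114 CPM in CD43-ckit- (0.87 ± 0.11, adjusted p = 0.000314). Fam132b, which encodes the hormone erythroferrone, was 4.53-fold higher in CD43+ckit- and Aco1, which encodes iron regulatory protein 1, 1.56-fold (adjusted p = 0.00082 and 0.00408). Among those higher in CD43-ckit-, Ftl1, which encodes ferritin light chain, stood at 16853, 15712 and 14226 CPM in CD43-ckit- against 2008, 2314 and 1765 CPM in CD43+ckit- (-2.94 ± 0.17, adjusted p = 2.67e-05), although 50.9% of its 50-base words also occur in pseudogenes and other genes. Ncoa4, which encodes the receptor that carries ferritin to the lysosome, was 4.52-fold higher in CD43-ckit- (-2.18 ± 0.23, adjusted p = 0.000167).

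Red cell membrane and blood group genes were called in both directions, with 5 of 25 higher in CD43+ckit- and 6 higher in CD43-ckit-. All tested genes gave 31.0% and 20.9%, and the list median was -0.23 (0.45 with library totals). Epb4.1, which encodes protein 4.1R of the spectrin-actin junction, stood at 13395, 9666 and 7587 CPM in CD43-ckit- against 1049.8, 1289 and 1220.1 CPM in CD43+ckit- (-3.11 ± 0.22, adjusted p = 3.19e-05). Art4, which carries the Dombrock antigen, stood at 738, 614 and 542 CPM in CD43-ckit- against 93.3, 116 and 97.5 CPM in CD43+ckit- (-2.63 ± 0.15, adjusted p = 2.43e-05). Bsg, which encodes basigin, was 2.61-fold higher in CD43-ckit- (-1.38 ± 0.14, adjusted p = 0.000139). The opposite direction was found for Rhag, which encodes the Rh-associated glycoprotein (0.99 ± 0.17, adjusted p = 0.00176), for Icam4, the Landsteiner-Wiener antigen (1.42 ± 0.14, adjusted p = 0.000127; all of its exon bases overlap an antisense gene, Gm47079), and for Slc14a1, the urea transporter of the Kidd antigen, at 119, 80.2 and 91.2 CPM in CD43+ckit- against 22.9, 27.8 and 29.6 CPM in CD43-ckit- (1.85 ± 0.26, adjusted p = 0.000584).

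Among 19 erythroid transcription factors, 9 were higher in CD43-ckit- and 3 higher in CD43+ckit-, with a median of -0.38 (0.30 with library totals). The 2 master regulators were not called. Gata1 stood at 652, 642 and 535 CPM in CD43+ckit- against 946, 669.7 and 674 CPM in CD43-ckit- (-0.32 ± 0.16, adjusted p = 0.12). Its direction turned with the scaling: it was called higher in CD43-ckit- with DESeq2 (-0.52, adjusted p = 0.00332) and higher in CD43+ckit- with library totals (0.34, adjusted p = 0.0293). Klf1 stood at 677, 652 and 467 CPM in CD43+ckit- against 923, 682 and 658 CPM in CD43-ckit- (-0.33 ± 0.19, adjusted p = 0.154) and was called higher in CD43-ckit- with DESeq2 (adjusted p = 0.0119). Tal1, whose product acts with GATA1, was 2.46-fold higher in CD43-ckit- (-1.30 ± 0.20, adjusted p = 0.000847). Nfe2, whose product acts late in erythroid and platelet formation, stood at 2035, 1692 and 1560.1 CPM in CD43-ckit- against 452, 569 and 428 CPM in CD43+ckit- (-1.87 ± 0.16, adjusted p = 5.79e-05). Foxo3, which encodes a driver of autophagy and antioxidant genes in late erythroblasts, stood at 2147, 1376 and 1070.4 CPM in CD43-ckit- against 459.5, 448 and 385 CPM in CD43+ckit- (-1.83 ± 0.24, adjusted p = 0.000415). E2f2 was 3.85-fold (-1.94 ± 0.27, adjusted p = 0.000578), Lyl1 3.98-fold (-1.99 ± 0.16, adjusted p = 5.17e-05) and Gata2, a progenitor factor, 3.12-fold higher in CD43-ckit- (-1.64 ± 0.25, adjusted p = 0.00092). Higher in CD43+ckit- were Ldb1, which encodes the bridge of the GATA1-TAL1 complex (0.94 ± 0.15, adjusted p = 0.00104), and Bcl11a, the repressor of fetal globin (1.15 ± 0.18, adjusted p = 0.00097), together with Ikzf1.

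Erythropoietin signalling genes gave 4 of 12 higher in CD43-ckit- and 2 higher in CD43+ckit- (median -0.51; 0.13 with library totals). The receptor gene Epor was not called, at 397, 388 and 303 CPM in CD43+ckit- against 523, 413 and 382 CPM in CD43-ckit- (-0.28 ± 0.21, adjusted p = 0.268). Pim1, a survival kinase gene, stood at 6725, 4674 and 3877 CPM in CD43-ckit- against 669.6, 658 and 576 CPM in CD43+ckit- (-3.004 ± 0.31, adjusted p = 0.00014). Cish, a feedback inhibitor gene, stood at 805, 606 and 524 CPM in CD43-ckit- against 121, 127 and 104 CPM in CD43+ckit- (-2.46 ± 0.35, adjusted p = 0.000626). Stat5b (0.76 ± 0.12, adjusted p = 0.00106) and Socs2 (1.21 ± 0.16, adjusted p = 0.000484) were higher in CD43+ckit-.

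The genes that dismantle the maturing red cell were mostly higher in CD43-ckit-. Of 17 ubiquitin and late remodelling genes tested, 13 were higher in CD43-ckit- and 0 higher in CD43+ckit- (13 and 0 at an unadjusted p below 0.05; 14 and 0 with DESeq2), beside 20.9% of all tested genes. Their median was -1.21 (-0.53 with library totals). Ube2o, which encodes the E2-E3 enzyme that removes ribosomal proteins and free alpha globin in reticulocytes, stood at 16312, 12972 and 10399 CPM in CD43-ckit- against 818, 1342 and 969 CPM in CD43+ckit- (-3.66 ± 0.27, adjusted p = 3.69e-05). Ube2h stood at 6968, 4795 and 3953 CPM in CD43-ckit- against 414, 569.7 and 496 CPM in CD43+ckit- (-3.41 ± 0.31, adjusted p = 7.83e-05). Xpo7, which encodes an exportin needed for nuclear condensation, stood at 5283, 3252 and 2702 CPM in CD43-ckit- against 282, 412 and 358 CPM in CD43+ckit- (-3.42 ± 0.27, adjusted p = 4.64e-05). The lowest CD43-ckit- library exceeded the highest CD43+ckit- library several times over in each, and replicate 1 was the highest of CD43-ckit-. Rnf10 was 5.73-fold higher (-2.52 ± 0.19, adjusted p = 3.79e-05), Ube2l6 3.93-fold (-1.98 ± 0.19, adjusted p = 9.5e-05) and Trim58, which encodes a ligase that acts before enucleation, 3.39-fold (-1.76 ± 0.22, adjusted p = 0.000349). Ube2c, whose product drives mitotic exit, was in this list and 7.10-fold higher in CD43-ckit- (-2.83 ± 0.20, adjusted p = 3.19e-05). Without a stated strand of counting, reads cannot be told from those of an antisense neighbour, which overlaps 22.8% of the exon bases of Ube2c, 22% of Pklr, 26.5% of Ftl1, 28.3% of Gabarapl1, 29.6% of Nans and 26.0% of St3gal6.

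Autophagy and mitophagy genes moved with them: 17 of 27 were higher in CD43-ckit- and 2 (Atg4c and Atg5; 1 without replicate 1 of both groups) higher in CD43+ckit-, with a median of -0.95 (-0.28 with library totals). Sqstm1, which encodes the cargo receptor p62, stood at 2963, 2464 and 2115 CPM in CD43-ckit- against 493, 504 and 419 CPM in CD43+ckit- (-2.41 ± 0.17, adjusted p = 3.12e-05). Bnip3l, which encodes the mitophagy receptor NIX of reticulocytes, stood at 1544, 1013 and 895 CPM in CD43-ckit- against 509, 349 and 379 CPM in CD43+ckit- (-1.48 ± 0.24, adjusted p = 0.00131). Ulk1, which encodes the initiating kinase, stood at 2326, 1668 and 1399 CPM in CD43-ckit- against 477, 574 and 429.9 CPM in CD43+ckit- (-1.87 ± 0.24, adjusted p = 0.000378). The ubiquitin-like modifiers that coat the autophagosome were all in this direction, with Gabarap at -1.89, Gabarapl1 at -1.85, Gabarapl2 at -1.65 and Map1lc3b at -1.47. Atg14, whose product directs the lipid kinase of the pathway, was 4.55-fold higher in CD43-ckit- (-2.19 ± 0.18, adjusted p = 4.69e-05). These 5 genes, from Gabarap to Atg14, did not overlap between groups and were called under all 17 alternatives.

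**Figure D3:**
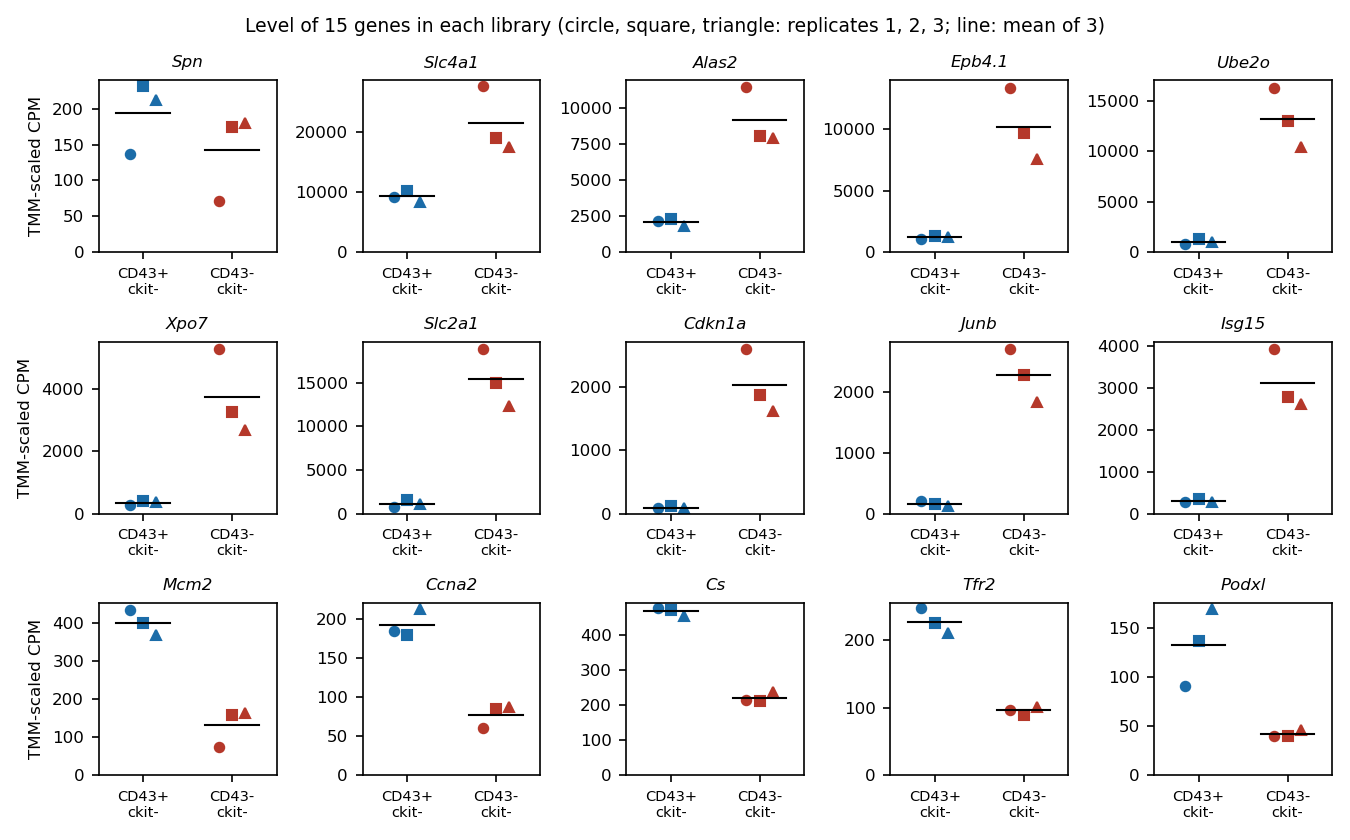
Each panel gives the TMM-scaled CPM of 1 gene in the 6 libraries from a zero baseline, with circles, squares and triangles for replicates 1, 2 and 3 and a line at the group mean. Spn overlaps between the groups, Ube2o, Xpo7, Slc2a1, Cdkn1a, Junb and Isg15 are higher in every CD43-ckit- library, and Mcm2, Ccna2, Cs, Tfr2 and Podxl are higher in every CD43+ckit- library.

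DNA replication genes were higher in CD43+ckit- with 1 exception. Of 36 tested, 35 were called higher in CD43+ckit- (31.0% of all tested genes were) and 0 higher in CD43-ckit-, the same counts as with DESeq2 and at an unadjusted p below 0.05, and the median was 1.35. Without replicate 1 of both groups the counts were 33 and 0 and the median 1.00. Mcm2, which encodes a subunit of the replicative helicase, stood at 434, 399 and 367 CPM in CD43+ckit- against 72.5, 157 and 163 CPM in CD43-ckit- (1.61 ± 0.27, adjusted p = 0.00133). Pcna, the sliding clamp, stood at 481, 332 and 369.9 CPM in CD43+ckit- against 111, 174 and 179 CPM in CD43-ckit- (1.35 ± 0.21, adjusted p = 0.00094). Cdc6, the origin licensing factor, stood at 141, 128 and 128 CPM in CD43+ckit- against 26.0, 44.4 and 49.8 CPM in CD43-ckit- (1.73 ± 0.21, adjusted p = 0.000335). Rrm1, which encodes the large subunit of ribonucleotide reductase, was 2.60-fold higher in CD43+ckit- (1.38 ± 0.13, adjusted p = 0.000101), Rpa1 2.01-fold (1.01 ± 0.12, adjusted p = 0.000284) and Gins4 1.88-fold (0.91 ± 0.12, adjusted p = 0.000447). The member that was not called was Rrm2, the small subunit of the same enzyme, at 257, 169 and 192 CPM in CD43+ckit- against 208, 206 and 184 CPM in CD43-ckit- (0.05 ± 0.16, adjusted p = 0.813). With library totals it was called higher in CD43+ckit- (0.69, adjusted p = 0.00626). Replicate 1 was the lowest CD43-ckit- library for 34 of the 36 genes.

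E2F factors switch on replication genes in late G1, and the promoters of 2 genes of the list are shown because they hold the E2F motif TTTCCCGC or TTTGGCGC (searched on both strands in the 250 bases before the start). Among RefSeq promoters (GRCm38.p6), 6 of 29 matched members of the replication list held it, beside 1.51% of 27025 genes with a promoter and 2.88% of tested genes. The 6 were Mcm5, Mcm6, Mcm7, Cdc6, Gins3 and Pola1, and none of 28 mitosis genes held it. The 150 bases that end at the start of transcription of Mcm6 (chr1:128359706-128359855, minus strand) hold 2 matches and those of Cdc6 (chr11:98908001-98908150, plus strand) hold 1, in capitals on whichever strand it was found. Mcm6 was picked after its values were seen and stood at 385, 259 and 280.1 CPM in CD43+ckit- against 89.6, 141 and 133 CPM in CD43-ckit- (1.35 ± 0.21, adjusted p = 0.00112).
Mcm6: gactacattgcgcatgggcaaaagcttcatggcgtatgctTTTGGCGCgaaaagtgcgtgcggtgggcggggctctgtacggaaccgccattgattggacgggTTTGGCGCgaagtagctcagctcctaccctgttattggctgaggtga
Cdc6: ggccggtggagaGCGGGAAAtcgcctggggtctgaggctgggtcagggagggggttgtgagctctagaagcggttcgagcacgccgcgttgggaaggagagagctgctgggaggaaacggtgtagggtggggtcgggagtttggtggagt

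Mitosis genes followed, with 31 of 34 higher in CD43+ckit- and 1 higher in CD43-ckit- (median 1.20; 26 and 1 without replicate 1 of both groups, 31 and 2 with the replicate block). Ccna2 (cyclin A2) stood at 185, 180.1 and 213 CPM in CD43+ckit- against 60.5, 84.3 and 87.5 CPM in CD43-ckit- (1.32 ± 0.15, adjusted p = 0.000264). Ccnb2 (cyclin B2) stood at 198, 207 and 221 CPM in CD43+ckit- against 45.9, 70.1 and 81.4 CPM in CD43-ckit- (1.66 ± 0.20, adjusted p = 0.000279). Top2a, Ccnb1, Tpx2 and Prc1 had fold changes of 1.21, 1.32, 1.29 and 1.25. The exception was Incenp, which encodes a subunit of the chromosomal passenger complex, at 696, 575 and 472 CPM in CD43-ckit- against 254, 279.6 and 279.8 CPM in CD43+ckit- (-1.10 ± 0.15, adjusted p = 0.000556). Mki67, the proliferation antigen Ki-67, overlapped between groups at 1028, 343 and 488 CPM in CD43+ckit- against 965, 716 and 679 CPM in CD43-ckit- and was not called (-0.34 ± 0.41, adjusted p = 0.492). With the replicate block it was called higher in CD43-ckit- (-0.54, adjusted p = 0.0185).

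Of 7 tested genes of cyclin-dependent kinase inhibitors (Cdkn genes), a subset taken after the values were seen, 3 were higher in CD43-ckit-, 1 was higher in CD43+ckit- and 3 were not called. Cdkn1a, which encodes p21, stood at 2588, 1868 and 1613 CPM in CD43-ckit- against 80.9, 113 and 85.7 CPM in CD43+ckit- (-4.44 ± 0.45, adjusted p = 0.000134). Cdkn1b, which encodes p27, stood at 2007, 1479.7 and 1239 CPM in CD43-ckit- against 273, 278 and 285 CPM in CD43+ckit- (-2.50 ± 0.18, adjusted p = 3.38e-05). Cdkn2d, which encodes p19INK4D, stood at 84.7, 90.3 and 77.4 CPM in CD43-ckit- against 21.5, 29.0 and 24.2 CPM in CD43+ckit- (-1.76 ± 0.25, adjusted p = 0.000623). Cdkn2c, which encodes p18INK4C, went the other way, at 237, 227 and 219.7 CPM in CD43+ckit- against 144, 155 and 149 CPM in CD43-ckit- (0.61 ± 0.14, adjusted p = 0.00573). The list of D cyclins, CDK4/6, inhibitors, RB and E2F genes as a whole had 7 of 25 higher in CD43+ckit- and 5 higher in CD43-ckit-. These counts were near the shares of all tested genes, 31.0% and 20.9%, and the list median was 0.12 (-0.07 with DESeq2). In the MYC, MAX and MXD network, 6 of 11 were higher in CD43-ckit- (median -0.37; 0.29 with library totals). Mxd1, which encodes a MAX partner that opposes MYC, stood at 3206, 2488 and 2034 CPM in CD43-ckit- against 320.0, 436 and 368 CPM in CD43+ckit- (-2.78 ± 0.34, adjusted p = 0.000343). Mxi1 (-2.10 ± 0.21, adjusted p = 0.000114), Mnt (-1.04 ± 0.14, adjusted p = 0.000449) and Max (-0.76 ± 0.14, adjusted p = 0.00237) were called the same way. The Max call was not kept with library totals (adjusted p = 0.355). Mxd3, the MXD gene of S phase, was higher in CD43+ckit- (1.49 ± 0.38, adjusted p = 0.00989), which was lost without replicate 1 of both groups (adjusted p = 0.0517).

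RNA of genes of mitochondrial respiration was mostly higher in CD43+ckit-, with 27 of 35 called, beside 31.0% of all tested genes. In the other direction 0 were called (1 with DESeq2 and 1 at an unadjusted p below 0.05), and the median was 0.65. Cs, which encodes citrate synthase, stood at 479, 473 and 456 CPM in CD43+ckit- against 214, 212 and 238 CPM in CD43-ckit- (1.08 ± 0.11, adjusted p = 0.000124). The complex I genes Ndufa9, Ndufs3 and Ndufv1 were 2.08-fold, 2.37-fold and 2.18-fold higher (largest adjusted p = 0.000628), and Sdha of complex II 1.63-fold (0.70 ± 0.12, adjusted p = 0.00182). Glycolysis genes lay mainly on the other side, with 12 of 24 higher in CD43-ckit- and 2 higher in CD43+ckit- (median -0.63; 0.01 with library totals). Slc2a1, which encodes the glucose transporter GLUT1, stood at 18808, 14991 and 12280.4 CPM in CD43-ckit- against 723, 1601 and 1081 CPM in CD43+ckit- (-3.76 ± 0.35, adjusted p = 8.67e-05). Bpgm, the gene of the enzyme that makes 2,3-bisphosphoglycerate in red cells, stood at 8300.4, 6499 and 5325 CPM in CD43-ckit- against 381, 591 and 460.4 CPM in CD43+ckit- (-3.81 ± 0.30, adjusted p = 4.22e-05). Aldoa was 3.24-fold higher in CD43-ckit- (-1.70 ± 0.16, adjusted p = 9.05e-05). The 2 members higher in CD43+ckit- were Pklr, given above, and Pfkm, which encodes muscle-type phosphofructokinase, at 165, 153 and 141 CPM in CD43+ckit- against 32.8, 51.7 and 51.4 CPM in CD43-ckit- (1.76 ± 0.18, adjusted p = 0.000138). Of 32 ribosome biogenesis genes 2 were called, both higher in CD43+ckit-, against 28 with library totals and 6 without replicate 1 of both groups. With the replicate block 12 were higher in CD43+ckit- and 1 the other way, and with DESeq2 0 and 1.

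**Figure D4:**
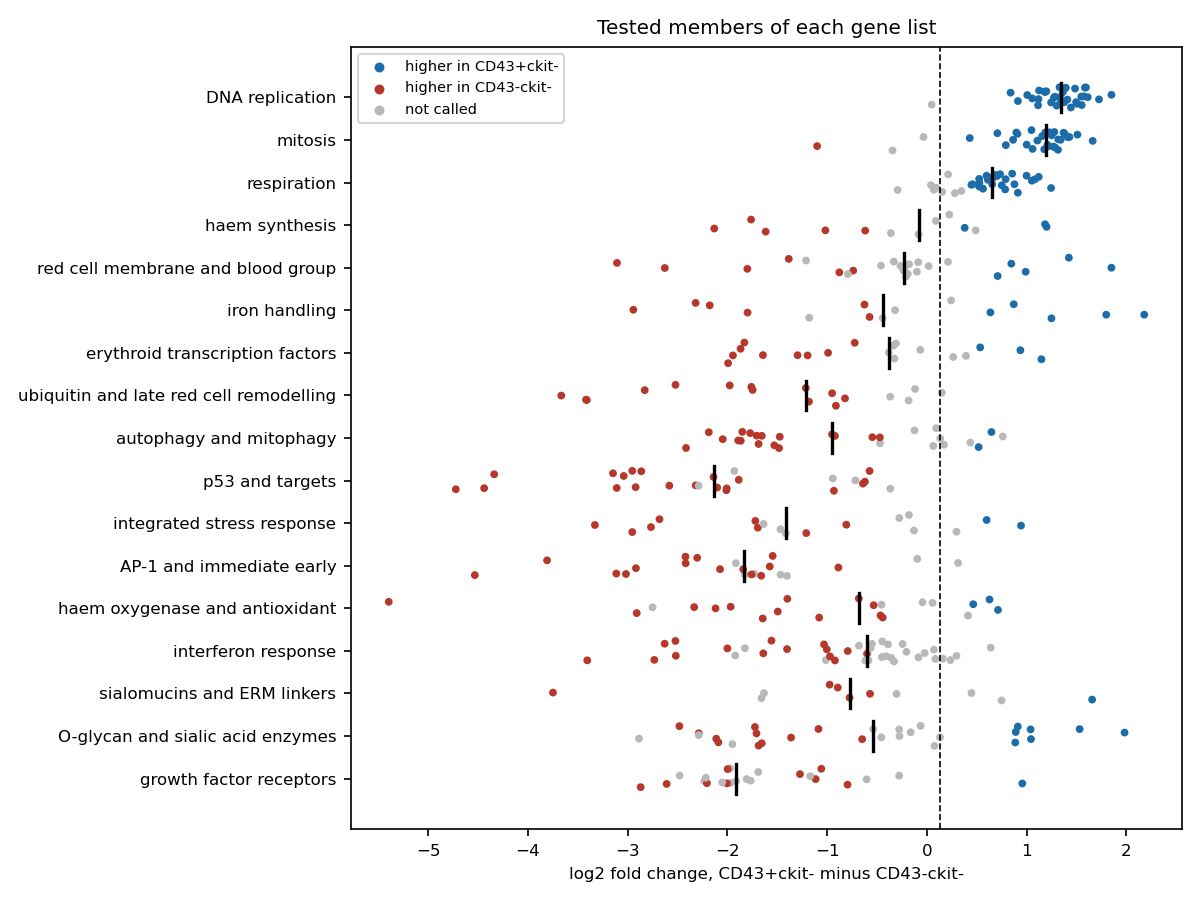
Each point is a tested member of the list named on the vertical axis, at its log2 fold change, CD43+ckit- minus CD43-ckit-, on the horizontal axis; black ticks are list medians and the dashed line is the median of all tested genes, 0.13. Replication, mitosis and respiration genes lie to the right, remodelling, autophagy and p53 genes to the left, and haem, iron and membrane genes on both sides.

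Genes of p53, the stress-activated tumour suppressor, and its targets were higher in CD43-ckit- in 20 of 25 tested genes, with 0 in the other direction (23 and 0 both with DESeq2 and at an unadjusted p below 0.05) and a median of -2.14 (-1.42 with library totals). Mdm2, which encodes the ligase that degrades p53, stood at 833, 588 and 469 CPM in CD43-ckit- against 75.5, 67.6 and 75.9 CPM in CD43+ckit- (-3.11 ± 0.23, adjusted p = 3.48e-05). The pro-death gene Bbc3 (PUMA) stood at 1851, 1437 and 1145 CPM in CD43-ckit- against 240.0, 182 and 118 CPM in CD43+ckit- (-3.04 ± 0.29, adjusted p = 9.5e-05). Bax, another of the death arm, stood at 612, 544 and 484 CPM in CD43-ckit- against 97.3, 126 and 106 CPM in CD43+ckit- (-2.32 ± 0.15, adjusted p = 2.72e-05). Cdkn1a and Eda2r, given above, belong to the same list. Trp53inp1 (-2.92 ± 0.24, adjusted p = 4.78e-05) and Sesn2, an inhibitor of mTORC1 (-2.95 ± 0.19, adjusted p = 2.72e-05), went the same way. Trp53 itself differed less (-0.57 ± 0.13, adjusted p = 0.00584) and reversed without a call with library totals (0.083). Of 13 BCL2 family genes, 7 were higher in CD43-ckit- and 2 higher in CD43+ckit- (median -0.87). With library totals these counts were 3 and 5 and the median was -0.20. Among those higher in CD43-ckit- was the pro-survival Bcl2l1 (BCL-XL), which late erythroblasts depend on, at 4193, 2793 and 2534 CPM in CD43-ckit- against 338, 547 and 389.9 CPM in CD43+ckit- (-2.90 ± 0.26, adjusted p = 6.98e-05). Mcl1 was called the same way (-0.75 ± 0.13, adjusted p = 0.00185; adjusted p = 0.468 with library totals).

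Genes of the integrated stress response, in which kinases such as the haem-regulated HRI slow translation and induce ATF4, were higher in CD43-ckit- in 8 of 17 and higher in CD43+ckit- in 2 (median -1.41; -0.72 with library totals). Eif2ak1, which encodes HRI, stood at 2264, 1645 and 1409.6 CPM in CD43-ckit- against 549, 564 and 531 CPM in CD43+ckit- (-1.69 ± 0.18, adjusted p = 0.000163). Atf4 stood at 1642, 1129 and 1074 CPM in CD43-ckit- against 398, 392 and 378 CPM in CD43+ckit- (-1.72 ± 0.18, adjusted p = 0.000154). Atf5, which encodes a related factor, stood at 626, 477 and 427 CPM in CD43-ckit- against 48.2, 59.0 and 45.3 CPM in CD43+ckit- (-3.33 ± 0.18, adjusted p = 2.25e-05). Ppp1r15a, which encodes the phosphatase subunit GADD34, stood at 6306, 3967 and 3434 CPM in CD43-ckit- against 1000.1, 515 and 624 CPM in CD43+ckit- (-2.68 ± 0.36, adjusted p = 0.000474). Ddit4 (-2.77 ± 0.18, adjusted p = 2.72e-05) and Ddit3 (-1.21 ± 0.26, adjusted p = 0.00443) were called too. Asns, the asparagine synthetase gene and a classical ATF4 target, was higher in CD43+ckit- instead, at 696, 755 and 758 CPM in CD43+ckit- against 397, 350.0 and 401 CPM in CD43-ckit- (0.94 ± 0.12, adjusted p = 0.000354), as was Eif2ak4. Without replicate 1 of both groups 1 gene was higher in CD43+ckit-.

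Immediate early genes, which growth signals and stress induce within minutes, were higher in CD43-ckit- in 15 of 22, with 0 in the other direction (17 and 0 at an unadjusted p below 0.05; 18 and 0 with DESeq2; median -1.83). Junb stood at 2699.7, 2278 and 1836 CPM in CD43-ckit- against 213, 154 and 119.6 CPM in CD43+ckit- (-3.81 ± 0.35, adjusted p = 8.67e-05). Klf6 stood at 1901, 1147 and 931 CPM in CD43-ckit- against 232, 122 and 138 CPM in CD43+ckit- (-3.02 ± 0.36, adjusted p = 0.000288). Egr1 was 8.65-fold higher (-3.11 ± 0.60, adjusted p = 0.00285), and the small MAF genes Mafk and Mafg, whose products pair with NFE2 and NRF2, 5.34-fold and 3.16-fold (adjusted p = 6.86e-05 and 0.000351). Of 14 genes of the BTG, TOB and ZFP36 families and the deadenylases they recruit, 8 were higher in CD43-ckit-. These included Btg2 at 1625, 1264 and 1072 CPM in CD43-ckit- against 166, 209 and 169.6 CPM in CD43+ckit- (-2.86 ± 0.23, adjusted p = 4.89e-05). Zfp36, which encodes the AU-rich element binder tristetraprolin, stood at 916, 725 and 614 CPM in CD43-ckit- against 80.9, 81.3 and 66.1 CPM in CD43+ckit- (-3.30 ± 0.21, adjusted p = 2.72e-05). Tob1 (-3.29 ± 0.26, adjusted p = 4.48e-05) and Tob2 (-2.12 ± 0.18, adjusted p = 5.56e-05) were called too. NF-kappaB genes were called higher in CD43-ckit- in 8 of 17 (median -0.49; 0.17 with library totals), among them the non-canonical subunits Relb (-1.79 ± 0.21, adjusted p = 0.000252) and Nfkb2 (-1.08 ± 0.17, adjusted p = 0.00108).

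Antioxidant genes were higher in CD43-ckit- in 13 of 21 and higher in CD43+ckit- in 3 (Blvra, Nqo1 and Keap1), with a median of -0.68. With library totals these counts were 9 and 6 and the median was -0.01. Beside Hmox1, the list held Nfe2l2, which encodes the inducer NRF2, at 346, 284 and 221 CPM in CD43-ckit- against 57.0, 53.7 and 58.3 CPM in CD43+ckit- (-2.33 ± 0.17, adjusted p = 3.19e-05). Bach1, which encodes the haem-sensitive repressor of the same sites, stood at 469, 334 and 267 CPM in CD43-ckit- against 91.7, 91.1 and 91.1 CPM in CD43+ckit- (-1.97 ± 0.19, adjusted p = 0.000106). Nfe2l1 was 4.34-fold (-2.12 ± 0.20, adjusted p = 8.67e-05), Cat (catalase) 2.64-fold (-1.40 ± 0.23, adjusted p = 0.00128) and Gpx1 (glutathione peroxidase 1) 2.82-fold higher in CD43-ckit- (-1.49 ± 0.15, adjusted p = 0.00014). Keap1, the gene of NRF2's inhibitor, was higher in CD43+ckit- (0.71 ± 0.11, adjusted p = 0.00098). Srxn1, the sulfiredoxin gene, stood at 408, 352 and 321 CPM in CD43-ckit- against 42.1, 53.7 and 48.2 CPM in CD43+ckit- (-2.91 ± 0.14, adjusted p = 2.25e-05). Prdx1, which encodes the peroxiredoxin that sulfiredoxin repairs, was picked after its values were seen and stood at 215, 161 and 174 CPM in CD43-ckit- against 98.0, 121 and 124 CPM in CD43+ckit- (-0.68 ± 0.17, adjusted p = 0.00866), a call that ended under scaling by library totals (-0.014, adjusted p = 0.928), and also without replicate 1 of both groups (adjusted p = 0.05001). These 2 were the only members among 19 with a RefSeq promoter to hold the antioxidant response element TGANTCAGC in the 250 bases before the start, beside 1.17% of all genes with a promoter. The letters overlap those of the NF-E2 motif. The windows of Srxn1 (chr2:152105374-152105523, plus strand) and Prdx1 (chr4:116685449-116685598, plus strand), GRCm38.p6, are given with the match in capitals.
Srxn1: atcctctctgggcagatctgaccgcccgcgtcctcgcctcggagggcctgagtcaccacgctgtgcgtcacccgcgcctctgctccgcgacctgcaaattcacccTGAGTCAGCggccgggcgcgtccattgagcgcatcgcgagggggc
Prdx1: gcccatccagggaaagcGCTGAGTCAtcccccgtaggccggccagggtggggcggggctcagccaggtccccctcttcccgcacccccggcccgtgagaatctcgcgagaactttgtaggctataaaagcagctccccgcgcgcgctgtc

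Interferon-response genes were called higher in CD43-ckit- in 15 of 39, and 0 were higher in CD43+ckit-, with a median of -0.60 (0.09 with library totals). At an unadjusted p below 0.05 these counts were 17 and 1, with DESeq2 25 and 0, with the replicate block 27 and 1, with library totals 6 and 8, and without replicate 1 of both groups 11 and 1. Isg15, a ubiquitin-like modifier gene, stood at 3915, 2770.0 and 2617 CPM in CD43-ckit- against 267, 338 and 273 CPM in CD43+ckit- (-3.40 ± 0.37, adjusted p = 0.000188). Ifit1, which encodes a binder of viral RNA caps, stood at 905, 537 and 464 CPM in CD43-ckit- against 128, 106 and 98.8 CPM in CD43+ckit- (-2.52 ± 0.42, adjusted p = 0.0014). Isg20 was 3.12-fold higher (-1.64 ± 0.21, adjusted p = 0.000361) and Ifi27l2a 3.998-fold (-1.999 ± 0.31, adjusted p = 0.00101). Stat2, which encodes a signal transducer of the type I interferon receptor, was not called, at 127, 121 and 119 CPM in CD43+ckit- against 152, 91.6 and 85.3 CPM in CD43-ckit- (0.16 ± 0.21, adjusted p = 0.522). It was called higher in CD43+ckit- with library totals (adjusted p = 0.00125), without replicate 1 of CD43-ckit- (adjusted p = 0.00799) and without replicate 1 of both groups (0.0194). Replicate 1 was the highest CD43-ckit- library for 35 of the 39 genes.

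The promoters of Isg15, Ifit1 and Stat2 are shown because they hold the interferon-stimulated response element, searched on both strands as GAAA, any 2 bases and GAAA again, in genes that were called (the first 2) and not called (Stat2). Of 27 interferon-list genes with a RefSeq promoter 9 held it in the 250 bases before the start, beside 3.46% of all genes with a promoter. Windows of 150 bases on GRCm38.p6 are printed for Isg15 (chr4:156200819-156200968, minus strand), Ifit1 (chr19:34640739-34640888, plus strand) and Stat2 (chr10:128270266-128270415, plus strand), with matches that do not overlap in capitals. In Isg15 the 2 lower-case bases between the matches, with the GAAA on each side, form a further match that overlaps both. The Stat2 window stops short of the start of transcription, and its match begins 222 bases before the start.
Isg15: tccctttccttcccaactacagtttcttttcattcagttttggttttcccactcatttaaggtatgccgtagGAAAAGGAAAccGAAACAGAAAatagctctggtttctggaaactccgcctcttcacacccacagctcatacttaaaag
Ifit1: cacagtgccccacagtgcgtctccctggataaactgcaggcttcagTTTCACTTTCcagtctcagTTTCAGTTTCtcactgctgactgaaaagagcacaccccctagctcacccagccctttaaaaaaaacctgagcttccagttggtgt
Stat2: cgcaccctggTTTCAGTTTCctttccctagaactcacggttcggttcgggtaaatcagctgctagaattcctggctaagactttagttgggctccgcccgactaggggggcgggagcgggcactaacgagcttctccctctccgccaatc

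MHC class I genes were called higher in CD43-ckit- in 4 of 15 and higher in CD43+ckit- in 2 (1 without replicate 1 of both groups). All tested genes gave 20.9% and 31.0%, and the list median was 0.05 (-0.15 with DESeq2). H2-D1 stood at 1246, 935 and 916 CPM in CD43-ckit- against 306, 288 and 249.6 CPM in CD43+ckit- (-1.88 ± 0.16, adjusted p = 6.63e-05). H2-T23 was 1.87-fold (-0.91 ± 0.17, adjusted p = 0.00241) and H2-K1 1.54-fold higher (-0.63 ± 0.16, adjusted p = 0.0106). The H2-T23 call did not hold under scaling by library totals (adjusted p = 0.0748). The H2-K1 call was lost without replicate 3 of CD43+ckit- (adjusted p = 0.0528) and its direction with library totals (0.035). The class I genes share sequence, so reads between them are uncertain. Calr, the calreticulin gene, stood at 3059.5, 2833 and 2401 CPM in CD43-ckit- against 675, 643 and 577 CPM in CD43+ckit- (-2.13 ± 0.19, adjusted p = 6.71e-05). Nlrc5, the transactivator of class I genes, was higher in CD43+ckit- (0.64 ± 0.13, adjusted p = 0.0031), together with Canx.

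Genes related to CD43 itself were read as a list of sialomucins and of the ezrin, radixin and moesin proteins that anchor them. Of 11 tested, 5 were higher in CD43-ckit- and 1 higher in CD43+ckit-, and with the replicate block 7 and 3 (median -0.77). With library totals the balance turned, with 1 higher in CD43-ckit- and 3 higher in CD43+ckit- (median -0.10). No member kept its call under all alternatives. With TMM scaling and no block, the member higher in CD43+ckit- was Podxl, which encodes podocalyxin. It stood at 91.2, 138 and 169 CPM in CD43+ckit- against 39.9, 39.9 and 46.4 CPM in CD43-ckit- (1.66 ± 0.45, adjusted p = 0.0149). The Podxl call was lost without replicate 1 of CD43-ckit- (adjusted p = 0.0521) and without replicate 1 of both groups (0.0713). Cd34 stood at 2.36, 5.96 and 7.75 CPM in CD43-ckit- against 0.168, 0.469 and 0.545 CPM in CD43+ckit- (-3.75 ± 0.83, adjusted p = 0.00548), near the low-count filter. Cd24a, an erythroid and B-lineage sialoglycoprotein gene, stood at 6037, 4004 and 3865 CPM in CD43-ckit- against 2727, 2124 and 2228 CPM in CD43+ckit- (-0.97 ± 0.20, adjusted p = 0.0036). Ezr, which encodes ezrin, was 1.71-fold (-0.77 ± 0.16, adjusted p = 0.00387) and Cd164 1.86-fold higher in CD43-ckit- (-0.89 ± 0.19, adjusted p = 0.0042). The last 3 calls were not kept with library totals (smallest adjusted p = 0.0784 for Cd24a).

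Enzymes that build O-glycans and attach sialic acid, which shape the sugar coat of CD43, were divided: 11 of 29 were higher in CD43-ckit- and 7 higher in CD43+ckit- (median -0.54; 0.16 with library totals). Gcnt1, the core 2 branching enzyme gene that makes the larger glycoform of CD43, stood at 989, 676 and 559 CPM in CD43-ckit- against 196, 151 and 168 CPM in CD43+ckit- (-2.11 ± 0.22, adjusted p = 0.000165). The sialyltransferase genes St3gal2 and St3gal5 were 3.22-fold and 3.30-fold higher in CD43-ckit- (adjusted p = 0.00051 and 0.000192). St3gal3, St3gal4 and St3gal6 were 2.89-fold, 2.06-fold and 3.95-fold higher in CD43+ckit- (largest adjusted p = 0.00391). The genes of sialic acid synthesis Gne and Nans were also higher in CD43+ckit-. Gne stood at 45.9, 56.6 and 52.1 CPM in CD43+ckit- against 20.8, 25.4 and 28.7 CPM in CD43-ckit- (1.04 ± 0.16, adjusted p = 0.000913) and Nans at 117, 114 and 105 CPM in CD43+ckit- against 55.1, 58.2 and 65.6 CPM in CD43-ckit- (0.91 ± 0.11, adjusted p = 0.000361).

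Receptor and adhesion genes were mostly higher in CD43-ckit- where they were called with TMM scaling. Of 23 growth factor receptors, 9 were higher in CD43-ckit- (21 with the replicate block and 6 with library totals), beside 20.9% of all tested genes. Csf2rb, the common beta chain gene of the IL-3, IL-5 and GM-CSF receptors, stood at 8633, 5284 and 4894 CPM in CD43-ckit- against 934, 1171 and 979 CPM in CD43+ckit- (-2.61 ± 0.31, adjusted p = 0.000306). Its neighbour Csf2rb2 stood at 7518, 4181 and 3773 CPM in CD43-ckit- against 647, 806 and 665 CPM in CD43+ckit- (-2.87 ± 0.35, adjusted p = 0.000332). Part of their sequence is shared, so reads between them are uncertain. Il4ra (-2.20 ± 0.17, adjusted p = 4.22e-05) and Ifngr2 (-2.003 ± 0.17, adjusted p = 6.63e-05) went the same way, and Il1rl1, the IL-33 receptor gene, the other (0.96 ± 0.24, adjusted p = 0.0091; adjusted p = 0.063 without replicate 1 of both groups). Of 25 adhesion and homing genes, 9 were higher in CD43-ckit- (18 with the replicate block), among them Icam1 (-1.07 ± 0.19, adjusted p = 0.00211) and Itga2b (-1.09 ± 0.20, adjusted p = 0.002; adjusted p = 0.0549 with library totals), and only Itgb7 was called the other way, at 899.7, 875 and 740.0 CPM in CD43+ckit- against 560.3, 389 and 479 CPM in CD43-ckit- (0.82 ± 0.16, adjusted p = 0.00296).

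Genes tied to the fusion protein gave no single direction. Of 20 core binding factor and AML1-ETO associated genes, 6 were higher in CD43+ckit- and 7 higher in CD43-ckit-. All tested genes gave 31.0% and 20.9%, and the list median was -0.38 (0.24 with library totals). Pou4f1, a gene known for high expression in leukaemia with this fusion, was higher in CD43+ckit- at 5.51, 4.997 and 5.48 CPM in CD43+ckit- against 1.65, 1.90 and 2.30 CPM in CD43-ckit- (1.45 ± 0.26, adjusted p = 0.00195). Cbfa2t3, the ETO family gene of erythroid complexes, stood at 904, 580.0 and 490.0 CPM in CD43-ckit- against 197, 190.2 and 161 CPM in CD43+ckit- (-1.85 ± 0.23, adjusted p = 0.000343). Id1, a target of AML1-ETO, stood at 49.7, 58.7 and 47.2 CPM in CD43-ckit- against 1.58, 7.71 and 5.26 CPM in CD43+ckit- (-3.42 ± 0.48, adjusted p = 0.000595). Cbfb, the partner subunit of RUNX proteins, was 3.31-fold (-1.73 ± 0.31, adjusted p = 0.00203) and Runx3 2.81-fold higher in CD43-ckit- (-1.49 ± 0.35, adjusted p = 0.0067), the latter not with library totals (adjusted p = 0.0838). Progenitor and leukaemia factors were higher in CD43-ckit- in 14 of 20, but in 3 with library totals and 9 without replicate 1 of both groups. Adgrg1 (GPR56) stood at 2911, 2346 and 2163 CPM in CD43-ckit- against 961, 1052 and 850.4 CPM in CD43+ckit- (-1.37 ± 0.15, adjusted p = 0.000207), Fli1 at -1.18 and Spi1, which encodes PU.1, at -0.92 (adjusted p = 0.00267 and 0.00648, and 0.0992 and 0.356 with library totals).

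With TMM scaling, summed levels of markers of other marrow cells were higher in CD43-ckit- as well, and their part in the results above was not tested. For megakaryocyte genes and for mast cell, basophil and eosinophil genes, the sums overlapped once a few genes were left out, as given below. The 33 neutrophil maturation genes summed to 977.3 to 5304 CPM in CD43+ckit- and 8253 to 23850 CPM in CD43-ckit-, which is 0.103% to 0.578% and 0.486% to 1.85% of all counts. In replicates 1, 2 and 3 of CD43++ckit+ they summed to 576, 212.1 and 8085 CPM. Without Mxd1, left out after its level was seen, the sums were 657.3 to 4868 CPM in CD43+ckit- and 5049 to 21810 CPM in CD43-ckit-. Replicate 1 of CD43-ckit-, at 5049 CPM, then lay close to replicate 2 of CD43+ckit-, at 4868 CPM. In the fit of 9 libraries 3 of them were called (Mxd1, Stfa1 and Fcgr3, the last not with library totals, at an adjusted p of 0.0864), while with the replicate block 32 were, all higher in CD43-ckit-. S100a8, an abundant neutrophil protein gene, stood at 89.6, 774 and 688 CPM in CD43+ckit- against 869.8, 3721 and 4445 CPM in CD43-ckit-, so replicate 1 of each group had the lowest value, and the groups did not overlap (-2.54 ± 1.44, adjusted p = 0.164; adjusted p = 1.12e-27 with the block and 0.036 without replicate 3 of CD43++ckit+). The erythroid remodelling genes ran the other way over the same CD43-ckit- libraries, since replicate 1, with the lowest neutrophil sum, was the highest for 15 of 17. Ngp stood at 889, 3556 and 3461 CPM, S100a9 at 817, 3504 and 3670.2 CPM and Lyz2 at 379.7, 1544 and 1519 CPM in CD43-ckit-. None of the 3 was called in the fit of 9 libraries (adjusted p = 0.182, 0.169 and 0.193), and all were with the block (adjusted p = 1.25e-25, 8.85e-26 and 2.57e-26) and without replicate 3 of CD43++ckit+ (adjusted p = 0.0242, 0.0328 and 0.0469).

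**Figure D5:**
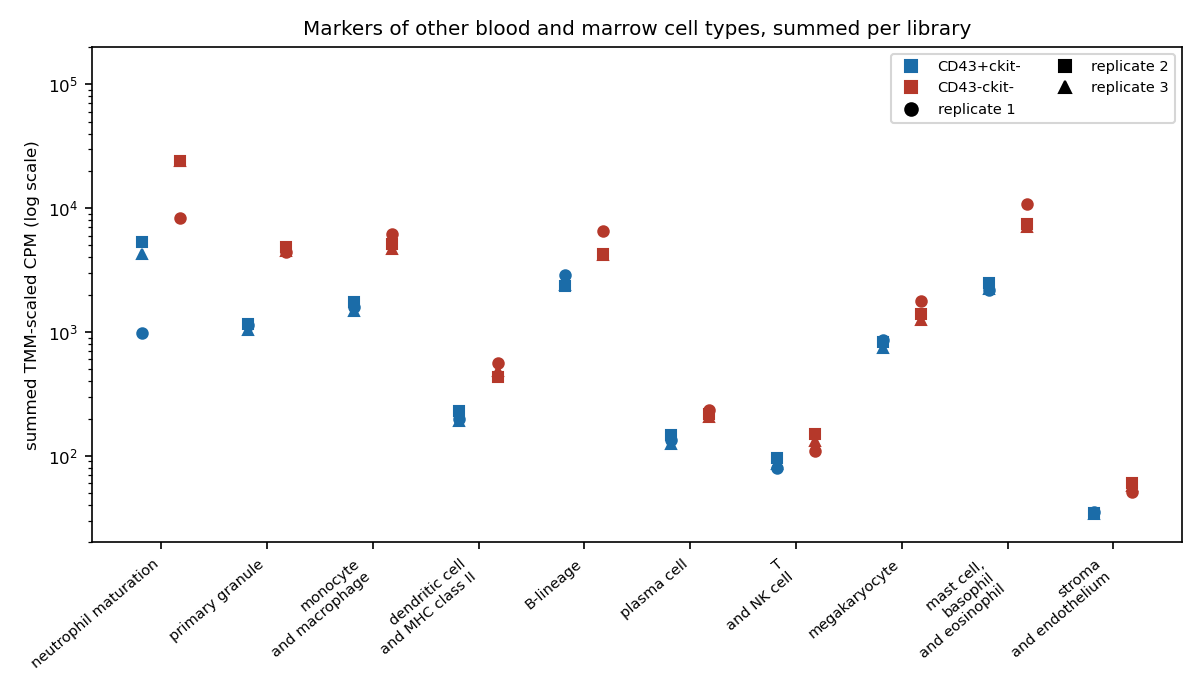
For each list of marker genes, points give the summed TMM-scaled CPM of all its members with a row in each library, on a log axis, with CD43+ckit- in blue and CD43-ckit- in red and a shape for each replicate. With TMM scaling every CD43-ckit- library lies above every CD43+ckit- library in the lists shown, and replicate 1 is the lowest of its group for neutrophil genes. As shares of all counts, which are not drawn, the groups overlap for neutrophil, plasma cell, T and NK cell, and stroma and endothelium genes.

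The 30 monocyte and macrophage genes summed to 1480 to 1730 CPM in CD43+ckit- and 4696 to 6172 CPM in CD43-ckit-, and without Ctsb, a cathepsin gene left out after its level was seen, to 90.5 to 287.4 and 1551 to 1723 CPM. Marco was at 0 counts in all 6 libraries. Of 28 tested, 18 were higher in CD43-ckit-, 28 with the replicate block and 7 without replicate 1 of both groups. Lgmn, a lysosomal protease gene, stood at 1153, 1060.1 and 867 CPM in CD43-ckit- against 29.5, 77.2 and 52.3 CPM in CD43+ckit- (-4.28 ± 0.58, adjusted p = 0.000601). The macrophage receptor genes Axl (-2.83 ± 0.54, adjusted p = 0.0027) and Mrc1 (-2.46 ± 0.48, adjusted p = 0.00283) were called too. C1qa, a complement gene of tissue macrophages, stood at 22.9, 8.77 and 8.68 CPM in CD43-ckit- against 1.01, 2.21 and 1.47 CPM in CD43+ckit- (-3.10 ± 0.83, adjusted p = 0.0137) and lost its call without replicate 1 or 3 of CD43+ckit- (adjusted p = 0.0603 and 0.0501) and without replicate 1 of both groups (0.131). The 25 B-lineage genes summed to 2333 to 2881 and 4187 to 6521 CPM, and without Cd24a to 154.8 to 210.2 and 279.9 to 485.9 CPM. Of 22 tested, 13 were higher in CD43-ckit-, and 2 without replicate 1 of both groups. Rag1 stood at 39.2, 12.5 and 11.1 CPM in CD43-ckit- against 1.14, 4.997 and 3.72 CPM in CD43+ckit-, highest in replicate 1 (-2.67 ± 0.73, adjusted p = 0.0151; adjusted p = 0.231 with the block and 0.0583 without replicate 1 of CD43-ckit-). T and NK cell genes summed to 80.4 to 96.2 CPM in CD43+ckit- and 110.4 to 150.7 CPM in CD43-ckit-, with 4 of 24 higher in CD43-ckit- (17 with the block, 1 without replicate 1 of both groups) and Lck higher in CD43+ckit- (1.34 ± 0.20, adjusted p = 0.000707).

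The third sorted population, CD43++ckit+, adds a level to the genes above. Tmcc2, which encodes a membrane protein of the endoplasmic reticulum, had mean CPM (± SD, n = 3) of 186 ± 83.2 in CD43++ckit+, 2289 ± 734 in CD43+ckit- and, highest, 40970.1 ± 12935 in CD43-ckit-. Chga, the chromogranin A gene, stood at 138 ± 110.2, 3874 ± 581 and 40093 ± 9654 CPM, and Slc4a1 at 407 ± 352, 9274 ± 890.1 and 21462 ± 5500.1 CPM. Pabpc1, which encodes the cytoplasmic poly(A)-binding protein, stood at 1546 ± 114, 2202 ± 161 and 12172 ± 2976 CPM. Between CD43+ckit- and CD43-ckit-, Tmcc2 (-4.16 ± 0.41, adjusted p = 0.000121), Chga (-3.37 ± 0.54, adjusted p = 0.00119) and Pabpc1 (-2.47 ± 0.20, adjusted p = 4.65e-05) were called. Mcm2 ran in the other order, at 438 ± 5.01, 399.9 ± 33.7 and 131 ± 50.4 CPM. Myh7b was highest in the middle population, at 10.8 ± 0.985, 30.5 ± 2.504 and 4.68 ± 0.938 CPM.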

How the data were processed

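The authors deposited 1 table of raw read counts per gene symbol for 9 libraries; the submitters' processing notes name CASAVA 1.8, TopHat2 2.0.4, HTSeq, RSEM and edgeR. Those notes give a human genome build although the rows are mouse symbols, so for these counts the build, annotation and strand setting are taken as not stated. Of 24391 rows, 6162 were at 0 in all libraries and 27 carried dates in place of symbols. Genes passing filterByExpr (minimum count 10, minimum total 15) were fitted with edgeR 4.0.16 in R 4.3.3 by the quasi-likelihood test, with TMM scaling, 3 group means over 9 libraries and no covariate. The standard error was the log2 fold change divided by the root of the F statistic. The script was tested on simulated data. The 17 alternatives were library totals as scaling, DESeq2 1.42.0, no or a stricter low-count filter, the 6 libraries alone, replicate blocks over 6 or 9 libraries, and leaving out each library or both first replicates.

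Deviations from the group mean were correlated across genes between libraries of the same number, with r of 0.525, 0.366 and 0.303 for replicates 1, 2 and 3, so the numbers were taken to pair libraries. Libraries of different numbers gave 0.349 and 0.343 between replicates 2 and 3 and -0.445 to -0.403 with replicate 1, so only replicate 1 stood apart, and this pairing comes from the data alone. The comparison and the 44 gene lists were chosen with earlier results of these data known. Named genes were Spn, Kit, Runx1 and Runx1t1, the 12 largest called changes in each direction (average log2 CPM of at least 3, no overlap between groups, no predicted genes, clone names or dates), the 10 highest by mean CPM in CD43-ckit-, and from each list its key members, the 4 with the smallest adjusted p (average log2 CPM of at least 1) and those called against the list's majority. A few genes that this rule selects are not reported here. Genes named only in a count of 5 or fewer were added after their values were seen. Promoters are RefSeq sequences on GRCm38.p6, and shared words and exon overlaps come from GENCODE vM21. Both strands of 14 motifs were searched: the interferon-stimulated response element (a pair of GAAA units with any 2 bases between), E2F (TTTCCCGC or TTTGGCGC), the antioxidant response element (TGANTCAGC), NF-E2 (TGC followed by the first 7 letters of the antioxidant element, which it overlaps), the cell cycle homology region (TTTGAA), the CCAAT box, CEBP-ATF (TTGCATCA), AGATAA for GATA factors, CACCC (CCACACCC), CRE (TGACGTCA), CLEAR (GTCAC followed by its reverse complement) and STAT (TTCNNNGAA). The heat shock element was taken as TTC, then any 2 bases, then GAA, then any 2 bases, then TTC. The E-box with GATA motif was taken as the half-site CTG placed 8 bases before the GATA factor letters given above. The 3 described were chosen after the shares were seen, and a match is a description, not a binding site.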

Additional observations from a re-analysis of the deposited data

How the results depend on the processing

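The count of called genes stayed within 1.5 times of 6523 under all 17 alternatives, at 5080 to 7800 when 1 library was left out. Calls higher in CD43+ckit- numbered 3893, 6865 with library totals and 3069 to 4213 with 1 library left out. Calls higher in CD43-ckit- numbered 2630, 1191 with library totals, 3949 with the replicate block over 6 libraries and 1889 to 3587 with 1 library left out. Calls of at least 2-fold numbered 3366, 5854 with library totals and 2824 to 4333 with 1 library left out. With library totals the fold changes of Runx1 (0.41), Gata1 (0.34), Klf1 (0.33), Epor (0.39), Mki67 (0.31), H2-K1 (0.035) and Trp53 (0.083) changed sign. Stat2 changed sign with DESeq2 (-0.031). Rrm2 changed sign with DESeq2 (-0.15), the stricter filter (-0.064), the 6 libraries alone (-0.017), the block over them (-0.031), without replicate 1 of CD43+ckit- (-0.12; range with 1 library left out -0.12 to 0.11) and without replicate 1 of both groups (-0.099). The cause was not tested. Library totals changed the sign of 14 list medians and DESeq2 of 2. The replicate block over 6 libraries changed no call of a named gene other than those given above, and the block over 9 libraries only those of Hspa1b and Rag1. Rows with few counts were not among the 12573 tested genes, so nothing is said of them. Where leaving out a library leaves 2 in a group, the 9-library spread is shared with them.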

Other observations

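Of 21 cholesterol genes 9 were called higher in CD43+ckit- and 3 higher in CD43-ckit-, beside 31.0% and 20.9% of all tested genes (median 0.47). With DESeq2 the counts were 7 and 5 (median 0.28). Nsdhl, which encodes an enzyme of late sterol synthesis, stood at 24.6, 27.9 and 28.6 CPM in CD43+ckit- against 8.25, 11.4 and 12.6 CPM in CD43-ckit- (1.33 ± 0.18, adjusted p = 0.000458), and Pmvk of the mevalonate pathway was 2.56-fold higher in CD43+ckit- (1.35 ± 0.24, adjusted p = 0.00195). Scap, the sterol sensor that escorts SREBP, was 1.77-fold higher (0.82 ± 0.13, adjusted p = 0.00125), while Insig1, whose product holds it back, was 1.77-fold higher in CD43-ckit- (-0.82 ± 0.18, adjusted p = 0.00502). Fdft1, which encodes squalene synthase, went with Insig1 (-0.90 ± 0.14, adjusted p = 0.000944). Neither of the last 2 calls was kept with library totals (adjusted p = 0.482 and 0.0627), and Abca1 was the third gene higher in CD43-ckit-.

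Of 20 heat shock and chaperonin genes, 6 were higher on each side, beside the same 31.0% and 20.9% (median -0.28; 0.37 with library totals), and with the replicate block 10 were higher in CD43-ckit- and 7 in CD43+ckit-. Called higher in CD43+ckit- were genes of the TRiC chaperonin, which folds actin and tubulin, with Cct5 at 268, 279 and 287 CPM in CD43+ckit- against 135, 158 and 170.2 CPM in CD43-ckit- (0.85 ± 0.13, adjusted p = 0.00101), Cct2 at 0.75 and Tcp1 at 0.64 (adjusted p = 0.00278 and 0.0057). The gene of the heat shock factor Hsf1 was 2.08-fold higher in CD43+ckit- (1.05 ± 0.19, adjusted p = 0.00193). Called the other way were 2 genes it induces, with Dnajb1 at 891, 659.9 and 568 CPM in CD43-ckit- against 182, 195 and 168 CPM in CD43+ckit- (-1.96 ± 0.19, adjusted p = 0.000119) and Bag3, a co-chaperone of HSP70, 3.24-fold higher in CD43-ckit- (-1.69 ± 0.23, adjusted p = 0.00054). Of 35 proteasome genes 5 were higher in CD43+ckit- and 6 in CD43-ckit- (median -0.05; with library totals 0.60, 30 and 1). Psme3, which encodes the nuclear PA28gamma cap, was 3.96-fold higher in CD43-ckit- (-1.99 ± 0.18, adjusted p = 7.67e-05) and Psmd3, a subunit of the 19S lid, 1.49-fold higher in CD43+ckit- (0.58 ± 0.11, adjusted p = 0.00236).

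The remaining lists of cell types are given here, to be read beside 31.0% higher in CD43+ckit- and 20.9% higher in CD43-ckit- over all tested genes. Platelet receptor genes were higher in CD43+ckit- for Gp9, at 11.7, 9.26 and 8.56 CPM in CD43+ckit- against 2.59, 1.70 and 3.23 CPM in CD43-ckit- (1.97 ± 0.34, adjusted p = 0.00157), and Gp1ba (1.03 ± 0.19, adjusted p = 0.00233). The megakaryocyte list had 5 of 15 higher in CD43+ckit- (3 without replicate 1 of both groups) and 3 in CD43-ckit- (6 with the replicate block), near the shares of all tested genes, and its summed level without Gata2, left out after its level was seen, overlapped at 482.5 to 514.5 and 462.2 to 513.7 CPM. As a share of all counts, that sum was lower in CD43-ckit-, at 0.0303% to 0.0359% against 0.0538% to 0.056% in CD43+ckit-. Mast cell, basophil and eosinophil genes had 5 of 19 higher in CD43-ckit- (12 with the block) and 3 higher in CD43+ckit- (1 without replicate 1 of both groups). Their summed level without Gata2, Csf2rb and Kit, left out after their levels were seen, overlapped at 862.9 to 969 and 794.9 to 1362 CPM. Those higher in CD43-ckit- included Cpa3, a mast cell protease gene, at 1.10, 3.27 and 2.15 CPM in CD43-ckit- against 0.0336, 0.134 and 0.224 CPM in CD43+ckit- (-4.01 ± 0.66, adjusted p = 0.00126). Alox5, which encodes 5-lipoxygenase, was higher in CD43+ckit- (0.996 ± 0.28, adjusted p = 0.0166), a call lost without replicate 2 of CD43+ckit- (adjusted p = 0.0621). Primary granule genes had 7 of 13 higher in CD43-ckit- (11 with the block, 3 without replicate 1 of both groups), among them Cst7 (-2.33 ± 0.31, adjusted p = 0.000446). Of 17 genes of dendritic cells and class II presentation 9 were higher there (14 with the block and 2 without those replicates), among them H2-DMb1 (-2.64 ± 0.53, adjusted p = 0.00332). Stroma and endothelium genes had 4 of 11 (1 without replicate 1 of both groups), among them Kdr (-1.54 ± 0.35, adjusted p = 0.00583), and plasma cell genes 2 of 8 (6 with the block, 1 without replicate 1 of both groups). Of 3 tested neuroendocrine granule genes 2, Chga and Vgf, were higher in CD43-ckit-.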
